A study of Mus musculus and Homo sapiens with 24 samples.

Results

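The transcripts described here encode the subunits of the hypoxia-inducible factors (HIFs) and the enzymes that sense oxygen for them, measured by RNA-Seq in HepG2 cells, an established human hepatoma line that keeps many hepatocyte functions. The 10 genes HIF1A, EPAS1, HIF3A, ARNT, ARNT2, EGLN1, EGLN2, EGLN3, VHL and HIF1AN were chosen by symbol, and all 10 were among the 28278 genes of the HepG2 count table. HepG2 cells were kept for 4 h in 1 of 4 conditions, with 3 samples each: untreated (control), 50 μM CoCl2, a cobalt salt used as a chemical mimic of hypoxia (CoCl2), 25 nM β-estradiol (estrogen), or both agents at these doses (CoCl2+estrogen). The control carried neither agent, and the vehicle is not given in the sources used here. All 12 samples came from 1 cell line, and nothing in the labels says whether the 3 samples of a group were separate cultures, so the p-values measure the spread between these samples, which may be technical.

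A HIF is a dimer of an oxygen-regulated alpha subunit and a stable beta subunit. HIF1A encodes HIF-1α, EPAS1 encodes HIF-2α and HIF3A encodes HIF-3α, whereas ARNT and ARNT2 encode beta subunits. When oxygen is present, the prolyl hydroxylases EGLN1 (PHD2), EGLN2 (PHD1) and EGLN3 (PHD3) mark the alpha subunit, VHL binds the marked protein as the recognition part of a ubiquitin ligase, and the protein is degraded. HIF1AN (factor inhibiting HIF) hydroxylates the same subunits at another site and blocks their contact with coactivators. Cobalt interferes with these iron-dependent hydroxylases, and EGLN1 and EGLN3 are themselves known HIF target genes, so that much of the pathway is controlled at the protein level, which RNA-Seq does not measure. In liver, HIF-1α is best known for glycolytic genes and HIF-2α for iron and lipid handling.

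Counts summed to between 13592637 and 21701480 per sample, and levels are given as CPM, counts brought to a common library size with TMM factors, which allows a gene to be compared between samples but not with another gene, since transcript length was not used. A gene is called higher or lower where the p of edgeR's quasi-likelihood test, after Benjamini-Hochberg adjustment over all genes tested, does not exceed 0.05. All 10 hepatocyte markers examined (ALB, AFP, APOA1, APOB, TTR, TF, SERPINA1, FGB, AHSG and HNF4A) were detected in every group, and of 10 markers of other cell types PTPRC, COL3A1 and KRT5 had no read in any sample, while GFAP, VWF and PECAM1 stayed at or below 2.14 CPM and EPCAM, ACTA2, CD68 and COL1A1 were detected. The summed hepatocyte markers ranged from 28324 to 30853 CPM in control, 30781 to 32501 in CoCl2, 15824 to 17154 in estrogen and 17175 to 18008 in CoCl2+estrogen samples, and all 10 were called lower in estrogen than in control cells. The summed markers of other cell types ranged from 237 to 246, 241 to 253, 221 to 231 and 221 to 244 CPM in the same order of groups. Within that sum, estrogen against control gave COL1A1 at 5.5% and CD68 at 51.3% of the control level and PECAM1 and EPCAM 2.39-fold and 1.12-fold higher, all 4 called by edgeR (adjusted p = 7.66e-12, 1.46e-06, 0.00309 and 0.0302). All samples were of 1 cell line, so these markers are read as transcripts and not as numbers of cells of a type. The part of these shifts in the results below was not tested. In bulk RNA, fewer cells with a transcript and less of it per cell cannot be told apart. CoCl2 replicate B stood apart from its group, with the lowest total and 9.93% of its counts in its 10 most abundant genes against 6.07% to 7.55% in the other samples.

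Under CoCl2 alone, 2 of the 9 genes tested were called, EGLN1 and EGLN3, both higher, where 1.31% of all genes tested were called higher and 1.44% in either direction. These are the 2 hydroxylase genes known as HIF targets. EGLN1 rose 1.91-fold and EGLN3 rose 4.18-fold, while no alpha or beta subunit gene, nor EGLN2, VHL or HIF1AN, passed the test. HIF3A was too low in these 2 groups to be tested.

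**Figure D1:**
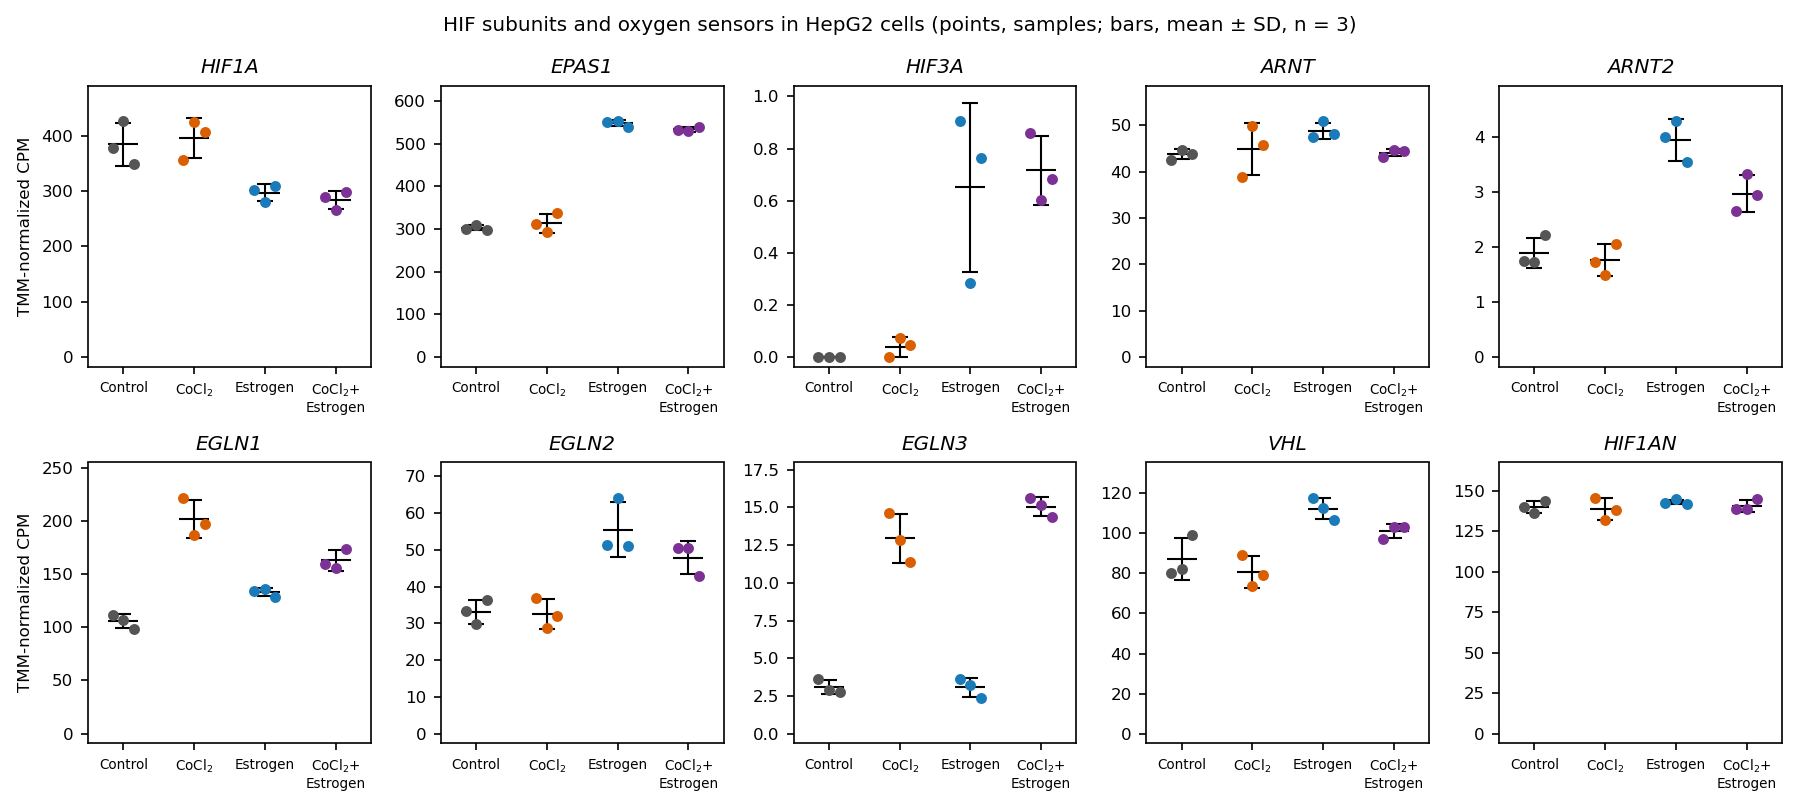
TMM-normalized CPM (vertical axes, each with its own range from 0) of the 10 genes in each of the 4 groups (horizontal axes). Points are the samples A, B and C from left to right, and bars show the mean ± SD (n = 3). EGLN3 was high in both groups with CoCl2, EPAS1 in both groups with estrogen, and EGLN1 was highest under CoCl2 alone.

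HIF3A passed the filter on low counts only through the samples with estrogen, so it is left out of the counts and tests that follow and described by its counts alone. Estrogen alone was accompanied by a call in 6 of the 9 other genes, 5 higher and 1 lower, where 68.9% of all genes tested were called, 34.7% higher and 34.2% lower. The share of genes called in this set was thus close to that of all genes. EPAS1, ARNT2, EGLN1, EGLN2 and VHL were higher and HIF1A was lower, and the median log2 fold change of the 9 genes was 0.32 against 0.00 for all genes tested. With both agents, 7 of the 9 genes were called against control, 6 higher and 1 lower, where 65.4% of all genes were called, 32.3% higher and 33.2% lower. EPAS1, ARNT2, EGLN1, EGLN2, EGLN3 and VHL were higher and HIF1A was lower, in a comparison that shares its control samples with that of estrogen alone.

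HIF1A, the gene of the alpha subunit that drives most of the acute response, was lower in every sample with estrogen. Its levels were 377, 426 and 349 CPM in control, 355, 425 and 407 CPM in CoCl2, 302, 280.2 and 309 CPM in estrogen, and 289, 265 and 297 CPM in CoCl2+estrogen samples. The control and CoCl2 samples interleaved, and all 6 samples with estrogen lay below all 6 without it. In estrogen against control 34.2% of all genes tested were called lower, and the share lying apart over all 12 samples was not counted. On the log2 scale the difference between CoCl2+estrogen and CoCl2 was -0.49 (standard error 0.08, edgeR's adjusted p = 9.38e-05), a level of 71.0% of that under CoCl2. CoCl2 gave no call on HIF1A mRNA in cells with estrogen (log2 fold change -0.04, 95% interval -0.16 to 0.08, edgeR's adjusted p = 0.725), and the interaction of the 2 agents was -0.08 (95% interval -0.33 to 0.17, edgeR's adjusted p = 0.798). The order of the groups, from low to high, was thus CoCl2+estrogen, estrogen, control and CoCl2, in which only estrogen and control, as neighbours, were told apart by edgeR's test.

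EPAS1, the gene of HIF-2α, moved in the other direction. It had 301, 309.7 and 298 CPM in control, 313, 292 and 337 CPM in CoCl2, 551, 553 and 540.4 CPM in estrogen, and 533, 529 and 540.2 CPM in CoCl2+estrogen samples. Every sample with estrogen lay above every sample without it, by a gap larger than the whole spread of either set. In estrogen against control alone, 36.6% of all genes tested lay higher without overlap of the groups, and the share over all 12 samples was not counted. The log2 fold change of estrogen against control was 0.84 (standard error 0.05, edgeR's adjusted p = 2.25e-09), or 1.79-fold, and that of CoCl2+estrogen against CoCl2 was 0.75 (standard error 0.07, edgeR's adjusted p = 1.05e-06), or 1.68-fold. CoCl2 alone gave 0.05 (95% interval -0.10 to 0.21, edgeR's adjusted p = 0.808), so a rise of EPAS1 mRNA of the size seen with estrogen lay outside the interval. The interaction was -0.06 (95% interval -0.26 to 0.13, edgeR's adjusted p = 0.799).

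The balance of these 2 alpha transcripts was also read within each sample, as the EPAS1 share of the summed HIF1A and EPAS1 counts, which does not depend on the scaling between samples. It is a share of counts, not of molecules, since the lengths of the transcripts differ. The share was 44.4%, 42.1% and 46.0% in control and 46.8%, 40.8% and 45.3% in CoCl2 samples, and 64.6%, 66.3% and 63.7% in estrogen and 64.9%, 66.6% and 64.5% in CoCl2+estrogen samples. EPAS1 thus went from under to over 50% of the pair in all samples with estrogen. The mean difference with estrogen was 20.9 percentage points (exact permutation test within CoCl2 status, two-sided, p = 0.005, the smallest that the 400 arrangements can give). The mean difference with CoCl2 was 0.29 percentage points (exact permutation test within estrogen status, two-sided, p = 0.785).

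**Figure D2:**
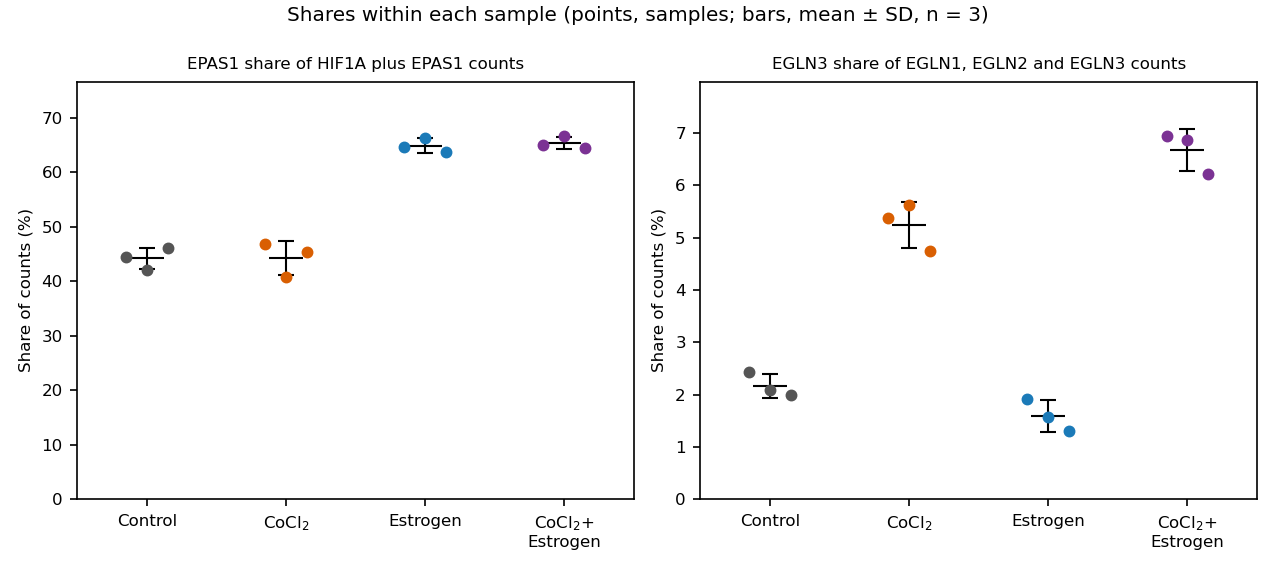
Left, EPAS1 counts as a percentage of HIF1A plus EPAS1 counts; right, EGLN3 counts as a percentage of EGLN1, EGLN2 and EGLN3 counts, by group (horizontal axis). Points are samples and bars the mean ± SD (n = 3). The EPAS1 share was 44.2% ± 1.97 in control and 64.9% ± 1.37 in estrogen samples, whereas the EGLN3 share was 2.17% ± 0.23 in control and 5.24% ± 0.44 in CoCl2 samples.

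HIF3A, whose products include inhibitors of the other alpha subunits, was near the limit of detection. Its counts were 0, 0 and 0 in control, 0, 1 and 1 in CoCl2, 16, 4 and 11 in estrogen, and 13, 10 and 10 in CoCl2+estrogen samples. All 6 samples with estrogen had more reads than any sample without it. Against a floor of 3 counts over the control group, the estrogen group was at least 13.1-fold higher and the CoCl2+estrogen group at least 13.9-fold higher, as a description with no test. Against CoCl2, with 33 counts over the group compared with 2, the CoCl2+estrogen group gave a ratio of 19.4 (exact 95% interval 4.95 to 166 for counting error only). This interval leaves out the spread between samples. It is a description and not a test, since HIF3A passed the filter only through the samples with estrogen. These counts are too low to rank samples within a group.

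Of the beta subunits, ARNT, the common partner of HIF-1α and HIF-2α, passed no test in any of the 6 comparisons. It had 42.6, 44.7 and 43.8 CPM in control, 38.9, 49.9 and 45.7 CPM in CoCl2, 47.5, 50.8 and 48.0 CPM in estrogen, and 43.2, 44.5 and 44.3 CPM in CoCl2+estrogen samples. The estrogen samples lay above the control samples, with a log2 difference of 0.14 (standard error 0.07, edgeR's adjusted p = 0.0739), as 36.6% of all genes tested did without overlap of the groups. ARNT2, best known as the beta subunit of neurons, was scarce. It had 1.76, 1.73 and 2.22 CPM in control, 1.72, 1.49 and 2.07 CPM in CoCl2, 4.01, 4.29 and 3.55 CPM in estrogen, and 2.65, 3.32 and 2.94 CPM in CoCl2+estrogen samples.

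Every ARNT2 value with estrogen exceeded every value without it. In estrogen against control alone, 36.6% of all genes tested lay higher without overlap, and the share lying apart over all 12 samples was not counted. Estrogen against control gave a log2 fold change of 1.04 (standard error 0.21, edgeR's adjusted p = 0.000445), or 2.06-fold. CoCl2+estrogen differed from control by 0.62 (standard error 0.23, edgeR's adjusted p = 0.0261) and from CoCl2 by 0.72 (standard error 0.25, edgeR's adjusted p = 0.0243). Both of these smaller calls ended with DESeq2 (adjusted p = 0.0724 and 0.0579, with ranges over all alternatives of 0.0121 to 0.0906 and 0.00624 to 0.0889). The first also ended without control replicate A or B, and the second without CoCl2 replicate A or B, as did both without CoCl2+estrogen replicate B or C, when the log2 fold changes were 0.54 to 0.63 and 0.62 to 0.73.

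The 3 prolyl hydroxylase genes followed 3 different patterns. EGLN1, the main hydroxylase of HIF-1α under normal oxygen, had 112, 107 and 98.6 CPM in control, 222, 187 and 197 CPM in CoCl2, 134, 136 and 128 CPM in estrogen, and 159, 155 and 174 CPM in CoCl2+estrogen samples. No group overlapped another, and the share of all genes for which this held was not counted. The order from low to high was control, estrogen, CoCl2+estrogen and CoCl2, and each neighbour in it differed from the next by edgeR's test.

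For EGLN1 the direction of the estrogen difference depended on CoCl2. Estrogen raised EGLN1 from control by 0.32 on the log2 scale (standard error 0.07, edgeR's adjusted p = 0.000804), whereas CoCl2+estrogen was below CoCl2, with a log2 fold change of -0.32 (standard error 0.08, edgeR's adjusted p = 0.00276). Read the other way, CoCl2 raised EGLN1 1.91-fold without estrogen (log2 fold change 0.94, standard error 0.08, edgeR's adjusted p = 0.000103) and 1.25-fold with it (log2 fold change 0.32, standard error 0.06, edgeR's adjusted p = 0.00118). The interaction was -0.62 (standard error 0.10, 95% interval -0.84 to -0.40, edgeR's adjusted p = 0.00137). EGLN1 was the 1 gene of the 9 with an interaction called, where 5.8% of all genes tested had one and 3.7% a lower one. Without CoCl2 replicate B the interaction was -0.69 (edgeR's adjusted p = 0.000242).

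EGLN2, a hydroxylase gene known as estrogen-responsive in breast cancer cells, was called with estrogen and in no test of CoCl2. Its levels were 33.3, 29.8 and 36.3 CPM in control, 36.8, 28.7 and 32.0 CPM in CoCl2, 51.3, 64.1 and 51.0 CPM in estrogen, and 50.5, 50.3 and 42.8 CPM in CoCl2+estrogen samples. All samples with estrogen were above all those without. In estrogen against control alone, 36.6% of all genes tested lay higher without overlap, and the share lying apart over all 12 samples was not counted. The log2 fold change was 0.73 for estrogen against control (standard error 0.10, edgeR's adjusted p = 7.08e-06) and 0.54 for CoCl2+estrogen against CoCl2 (standard error 0.10, edgeR's adjusted p = 0.000463). CoCl2 alone gave -0.02 (95% interval -0.24 to 0.20, edgeR's adjusted p = 0.959), and CoCl2 on top of estrogen gave -0.18 (95% interval -0.38 to 0.02, edgeR's adjusted p = 0.22). The readthrough transcript RAB4B-EGLN2, which shares exons with EGLN2, held 0 to 2.03 CPM in the estimated counts, and the effect of that split of shared exons on EGLN2 was not tested.

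EGLN3, the hydroxylase gene most strongly induced by HIF in many cells, was called with CoCl2 and in no test of estrogen. It had 3.62, 2.91 and 2.74 CPM in control, 14.7, 12.8 and 11.4 CPM in CoCl2, 3.62, 3.22 and 2.36 CPM in estrogen, and 15.6, 15.2 and 14.4 CPM in CoCl2+estrogen samples. The samples fell into a low and a high set by CoCl2 alone, with no value between 3.62 and 11.4 CPM. For how large a share of all genes this held was not counted. The log2 fold change of CoCl2 was 2.06 without estrogen (standard error 0.16, edgeR's adjusted p = 4.4e-05) and 2.31 with it (standard error 0.15, edgeR's adjusted p = 9.9e-09), or 4.18-fold and 4.96-fold. The interaction was 0.25 (95% interval -0.22 to 0.72, edgeR's adjusted p = 0.63). Estrogen gave -0.02 without CoCl2 (95% interval -0.49 to 0.45, edgeR's adjusted p = 0.937) and 0.20 with it (95% interval -0.05 to 0.46, edgeR's adjusted p = 0.146), and the latter passed, at 0.30 and an adjusted p of 0.049, when CoCl2 replicate A was left out.

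The EGLN3 share of the summed counts of the 3 hydroxylase genes needs no scaling between samples. It was 2.43%, 2.09% and 1.99% in control, 5.37%, 5.61% and 4.75% in CoCl2, 1.91%, 1.58% and 1.30% in estrogen, and 6.94%, 6.87% and 6.22% in CoCl2+estrogen samples. The 4 groups did not overlap. The mean difference with CoCl2 was 4.08 percentage points (exact permutation test within estrogen status, two-sided, p = 0.005, the smallest possible here). With estrogen it was 0.43 percentage points (exact permutation test within CoCl2 status, two-sided, p = 0.29), an average over a lower share without CoCl2 and a higher share with it.

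VHL, the substrate receptor of the ligase, had 80.1, 82.2 and 99.3 CPM in control, 89.3, 73.5 and 79.4 CPM in CoCl2, 118, 112 and 107 CPM in estrogen, and 97.4, 103 and 103 CPM in CoCl2+estrogen samples. The estrogen samples lay above all control and CoCl2 samples, whereas the CoCl2+estrogen samples overlapped the control samples. Of all genes tested, 36.6% lay higher without overlap in estrogen against control, and the share above the CoCl2 samples as well was not counted. The log2 fold change of estrogen against control was 0.35 (standard error 0.08, edgeR's adjusted p = 0.000885), or 1.28-fold, and that of CoCl2+estrogen against CoCl2 was 0.31 (standard error 0.09, edgeR's adjusted p = 0.00814). CoCl2+estrogen differed from control by 0.19 (standard error 0.08, edgeR's adjusted p = 0.0444), a call that ended under upper-quartile scaling and with library totals alone (adjusted p = 0.0641 and 0.3, with a range over all alternatives of 0.00093 to 0.3). It also ended when any 1 sample other than control replicate C was left out, with log2 fold changes of 0.14 to 0.22.

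HIF1AN, the asparaginyl hydroxylase gene, stayed between 132 and 146 CPM in all 12 samples. Its log2 fold changes in the 5 comparisons of 2 groups lay between -0.02 and 0.02, with no edgeR call. The intervals were narrow: -0.16 to 0.13 for CoCl2 and -0.11 to 0.14 for estrogen, both against control. With 68.9% of all genes called under estrogen, HIF1AN and ARNT were, with EGLN3, the genes of this set that were not.

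**Figure D3:**
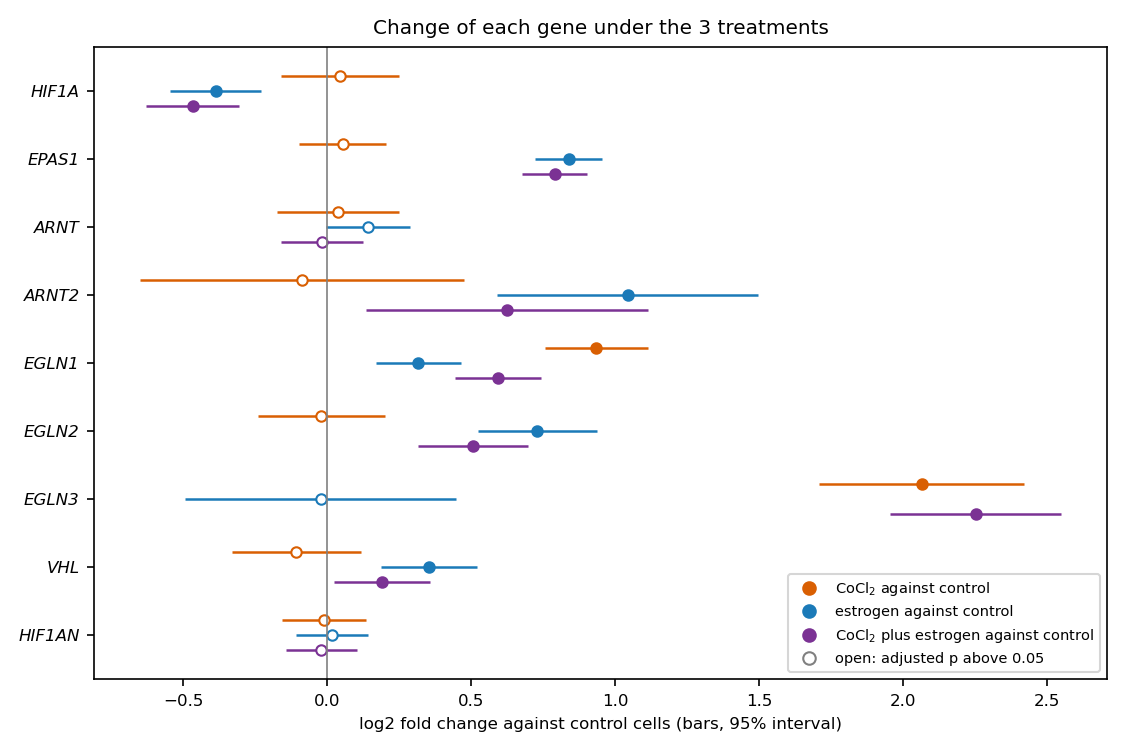
Log2 fold changes against control (horizontal axis) of 9 genes under CoCl2, estrogen and both. Points are edgeR estimates, bars 95% intervals, and open points have an adjusted p above 0.05. HIF3A is left out because no control sample had a read. EGLN3 lay at 2.06 and 2.25 with CoCl2 and at -0.02 with estrogen alone, whereas EPAS1 lay at 0.84 and 0.79 with estrogen and at 0.05 with CoCl2 alone.

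The values that rest on CoCl2 replicate B were computed again without it. In CoCl2 against control, EGLN1 then had a log2 fold change of 0.99 and EGLN3 of 2.07 (edgeR's adjusted p = 2.35e-05 for both), and the same number of genes of the set, 2, was called, where 1.47% of all genes were. In CoCl2+estrogen against CoCl2, HIF1A then had -0.45, EPAS1 0.69, EGLN1 -0.38, EGLN2 0.46 and VHL 0.24, all still called by edgeR, whereas ARNT2 was not. In that comparison 6 of the 9 genes were called with all samples, 4 higher and 2 lower, where 60.9% of all genes were called, 30.1% higher and 30.8% lower. In CoCl2+estrogen against estrogen the 2 called genes were EGLN1 and EGLN3, both higher, where 17% of all genes were called and 8.14% were higher.

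The remaining machinery was read from lists written from general knowledge. Of 8 partners of VHL in its ligase, none was called under CoCl2, where 1.44% of all genes were, and under estrogen 2 were higher and 3 lower, near the 68.9% of all genes called, with a median log2 fold change of -0.12. UBE2D1, a ubiquitin-conjugating enzyme, rose by 0.79 (edgeR's adjusted p = 1.16e-05), whereas ELOB (elongin B) fell by 0.51 (edgeR's adjusted p = 0.000132) and NEDD8, the activator of the cullin, fell by 0.28 (edgeR's adjusted p = 0.00558). CUL2, the scaffold of the ligase, was lower in CoCl2+estrogen than in CoCl2 cells, with a log2 fold change of -0.30 (edgeR's adjusted p = 0.00597).

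Among 12 factors that affect the stability of the alpha subunit by other routes, none was called under CoCl2 (1.44% of all genes) and all 12 under estrogen, 4 higher and 8 lower, where 34.7% of all genes were higher and 34.2% lower (median log2 fold change of the list -0.26). The chaperone genes HSP90AA1 and HSP90AB1, whose products protect HIF-1α, fell by 1.37 and 0.92 on the log2 scale (edgeR's adjusted p = 9.21e-12 and 1e-09). SIAH1, a ubiquitin ligase that acts on hydroxylases of this family, rose by 1.18 (edgeR's adjusted p = 1.19e-07), whereas its paralog SIAH2, named after its values were seen, fell by 0.72 (edgeR's adjusted p = 1.35e-07). FKBP8, which anchors EGLN1, was 64.9% of the control level in CoCl2+estrogen cells (edgeR's adjusted p = 2.15e-06). With CoCl2 on top of estrogen, 3 of the 12 were higher and 2 lower, where 17% of all genes were called and 8.14% were higher. The 3 higher ones were HSP90AA1, by 0.36 (edgeR's adjusted p = 0.000161), HSP90AB1, by 0.19 (edgeR's adjusted p = 0.0165), and SART1, a protein that binds HIF-1α, by 0.32 (edgeR's adjusted p = 0.0219).

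Of the coactivators of HIF and their inhibitors, CITED2 was the single gene of 10 tested that was called under CoCl2, where 1.44% of all genes were. CITED2 competes with HIF-1α for its coactivators and is itself a HIF target, and its log2 fold change was 0.91 without estrogen (edgeR's adjusted p = 0.000335) and 0.99 with it (edgeR's adjusted p = 6.88e-08). Under estrogen 7 of 11 were higher and 2 lower, where 68.9% of all genes were called and 34.7% were higher. The 7 include CITED1, with counts of 0, 0 and 1 in control and 10, 4 and 2 in estrogen samples. CITED1 passed the filter on low counts only through the samples with estrogen, so its call does not count as support. The acetyltransferase genes CREBBP and EP300 rose 2.59-fold and 2.03-fold, and NCOA1 rose 1.78-fold (edgeR's adjusted p = 5.15e-11, 1.25e-09 and 1.53e-08). APEX1, a redox factor that supports HIF binding, and SMARCA4, a chromatin remodeller, rose with CoCl2 on top of estrogen by 0.48 (edgeR's adjusted p = 8.18e-05) and 0.18 (edgeR's adjusted p = 0.0317).

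The other genes of the bHLH-PAS family, to which HIF1A, EPAS1 and ARNT belong, include AHR and SIM2, whose products pair with ARNT, and clock genes, whose products pair among themselves. Under estrogen 6 were higher and 1 lower of 8 tested, where 68.9% of all genes were called and 34.7% were higher, with a median log2 fold change of 0.90. AHR, the receptor for dioxins, rose 3.97-fold, its repressor AHRR rose 8.34-fold, and SIM2 rose 4.04-fold (edgeR's adjusted p = 5.58e-13, 2.49e-11 and 4.48e-08). None was called under CoCl2 alone, where 1.44% of all genes were. With CoCl2 on top of estrogen, AHR fell by 0.38, AHRR by 0.40 and the clock gene ARNTL by 0.38 (edgeR's adjusted p = 0.000113, 0.0139 and 0.0439). Of the other dioxygenases that respond to oxygen, the histone demethylase genes KDM6A and KDM5A rose under estrogen by 1.42 and 0.63 (edgeR's adjusted p = 3.99e-11 and 1.02e-06), and KDM6A fell by 0.50 with CoCl2 on top of estrogen (edgeR's adjusted p = 2.8e-05).

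**Figure D4:**
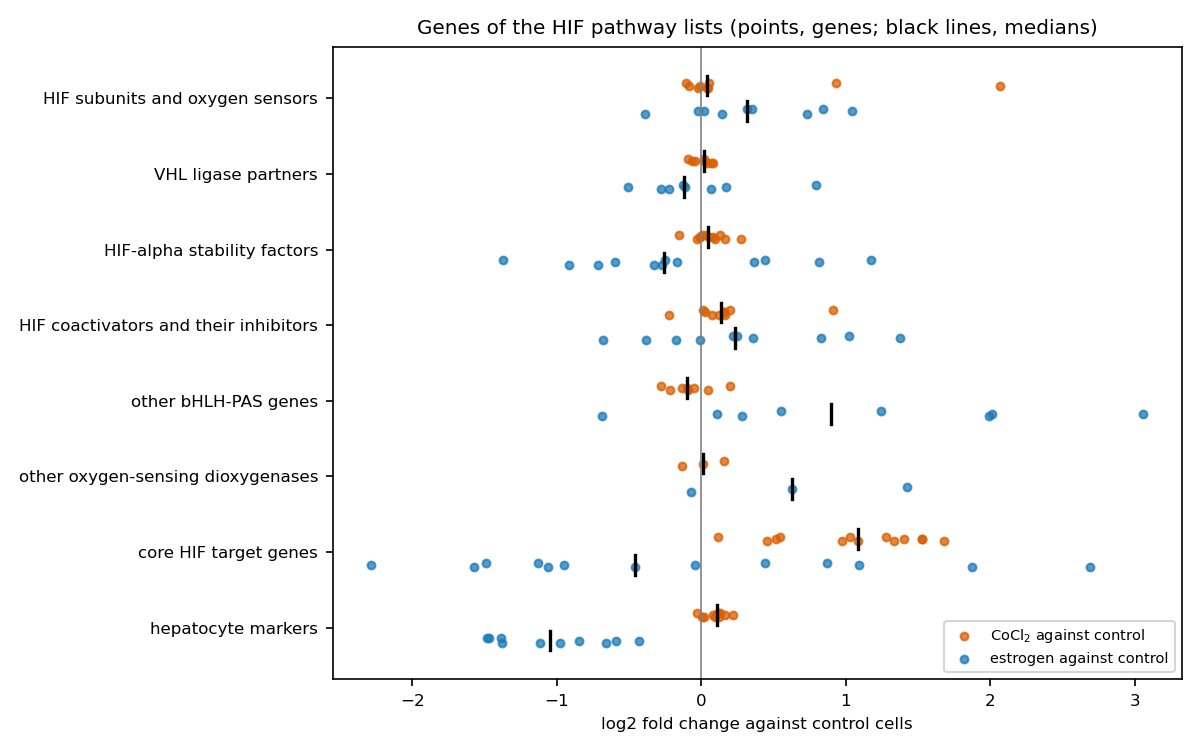
Log2 fold changes against control (horizontal axis) of the genes of each list under CoCl2 and estrogen. Points are genes, black lines are medians of the genes drawn, and HIF3A and CITED1 are left out for low counts. Under CoCl2 the core HIF target genes were centred on 1.09 and the other lists near 0, whereas under estrogen each list was spread in both directions except the hepatocyte markers, which were all lower.

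The products of the pathway were followed in 13 core HIF target genes. Under CoCl2, 12 were higher, where 1.31% of all genes tested were. SLC2A1, the glucose transporter gene GLUT1, was the exception with 0.11 (edgeR's adjusted p = 0.699), and the list's median log2 fold change was 1.09. With estrogen present, CoCl2 raised 10 of the 13, where 8.14% of all genes tested were higher. The median was 0.79 against 0.01 for all genes, and VEGFA, CA9 and SLC2A1 were not called. ADM, the gene of the peptide adrenomedullin, rose 3.21-fold without and 1.73-fold with estrogen, and NDRG1, a stress-response gene, rose 2.88-fold and 1.82-fold. KDM3A, a histone demethylase gene, rose 2.43-fold and 1.79-fold, whereas PDK1, which diverts pyruvate from mitochondria, rose 2.52-fold and 3.02-fold.

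The interaction was called in 6 of these target genes, 5 with a smaller CoCl2 effect under estrogen, as for EGLN1, and 1 with a larger one, where 5.8% of all genes had a called interaction and 3.7% a lower one. VEGFA, the angiogenic growth factor gene, had an interaction of -1.12 (edgeR's adjusted p = 1.02e-06), ADM of -0.89 (edgeR's adjusted p = 0.000699) and NDRG1 of -0.67 (edgeR's adjusted p = 9.13e-05). KDM3A (-0.44), the mitophagy gene BNIP3 (-0.42) and the lactate dehydrogenase gene LDHA (0.40) complete the count and are named after their values were seen (edgeR's adjusted p = 0.00412, 0.0169 and 0.034). Of the 5 genes with a lower interaction, estrogen alone raised VEGFA, ADM, NDRG1 and KDM3A, by 2.69, 1.87, 1.09 and 0.87 on the log2 scale, and lowered BNIP3, with a log2 fold change of -1.13. Under estrogen alone the 13 target genes were split, 5 higher and 7 lower, where 34.7% of all genes were higher and 34.2% lower, with LDHA and P4HA1, a collagen prolyl hydroxylase gene, lower by 1.57 and 1.49 on the log2 scale.

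**Figure D5:**
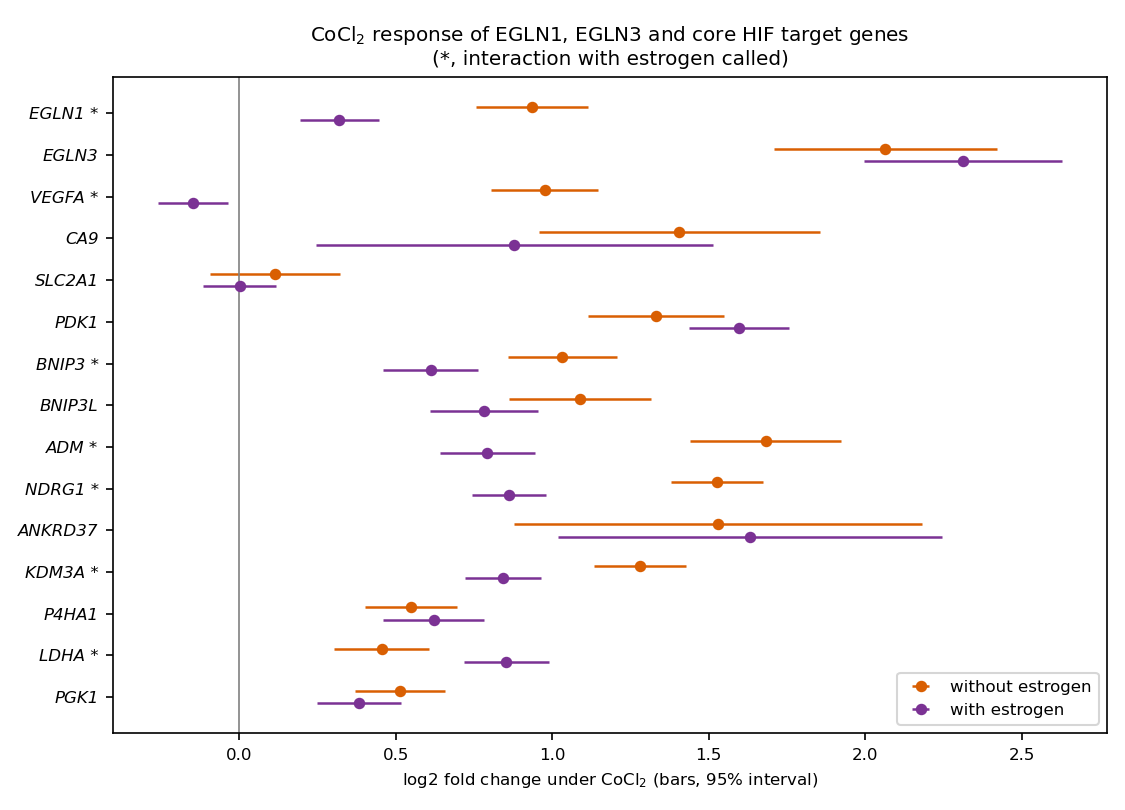
Log2 fold change under CoCl2 (horizontal axis) of EGLN1, EGLN3 and 13 core HIF target genes without estrogen (CoCl2 against control) and with estrogen (CoCl2+estrogen against estrogen). Points are edgeR estimates, bars 95% intervals, and an asterisk marks a called interaction. EGLN1 lay at 0.94 without and 0.32 with estrogen, whereas the intervals of EGLN3 overlapped, at 2.06 and 2.31.

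Over the 12 samples, among 11001 genes that averaged 5 CPM or more, the genes whose log2 CPM followed each pattern most closely were DLG1, ANLN and PHYHIPL for HIF1A (Pearson r = 0.99, 0.98 and 0.97) and CSGALNACT1, TMEM156 and TGFBR3 for EPAS1 (r = 0.997, 0.997 and 0.996). EGLN1 was closest to HK2, DDIT4 and SLC2A3 (r = 0.96, 0.93 and 0.92) and EGLN3 to PLOD2, TXNRD1 and CITED2 (r = 0.96, 0.95 and 0.94). These correlations describe 4 groups of 3 samples and share the samples and their depth. Antisense and overlapping neighbours were scarce beside their partners: HIF1A-AS1, HIF1A-AS2 and HIF1A-AS3 reached at most 0.07, 1.12 and 0.24 CPM, and RAB4B, which lies next to EGLN2, 1.23 to 4.29 CPM. RAB4B was lower in CoCl2+estrogen than in control and in CoCl2 cells (log2 fold changes -0.89 and -0.97, edgeR's adjusted p = 0.0112 and 0.0106). The libraries were made with a stranded kit, and whether the counting used strand is not given in the sources used here, so reads of HIF1A and its antisense genes cannot be told apart.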

How the data were processed

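HepG2 RNA was extracted with a column kit, depleted of ribosomal RNA and made into stranded total RNA libraries. Per the study's methods and processing notes, the authors removed ribosomal and transfer RNA reads with Bowtie2 2.2.5, aligned the rest with STAR 2.7.8a and quantified genes in Partek. The build of the HepG2 reads is not separately stated, since the notes list hg38 and mm10. What the authors deposited from this are estimated counts, listed by gene symbol and without any depth scaling. Of these values 23.8% were not whole, and 7034 of 28278 genes had no count. The 12 mouse libraries of the series were not analysed here, and no human sequence or length was used here.

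After rounding, edgeR 4.0.16 (R 4.3.3, limma 3.58.1) was run with TMM factors, keeping a gene if any library of the fit had more than 5 counts, with the quasi-likelihood test on the 6 libraries of each comparison or, for the interaction, on all 12, and Benjamini-Hochberg adjustment over all genes tested. The study's own test, DESeq2 (1.42.0), was an alternative, beside other scalings and filters, the replicate letter as a block, all 12 libraries in one fit and leaving out each library. Standard errors and 95% intervals come from the same fit. Shares within a library were tested by exact permutation within the other agent's status. The script was tested on simulated counts. A fold against a group without reads was computed against 3 counts over the group. Intervals and floors cover counting error only where so stated.

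Named genes were all 10 of the set, up to 3 called genes per list and comparison with the smallest adjusted p, of which part is given, the neighbours with a count, and the 3 genes closest in pattern. The genes and lists were chosen with earlier results of these data known. The replicate letters were checked as a pairing: of 18 pairs of same-letter samples, 6 deviated together with a correlation above 0.1 (range -0.51 to 0.48), so they were taken as names. Whether samples of the same letter were handled together is not given in the labels and was not tested.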

Additional observations from a re-analysis of the deposited data

Results flagged for a closer look

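In these results the CoCl2 effect differed between cells with and without estrogen by the test of the difference itself, edgeR's interaction term over 12 samples. For EGLN1 the interaction was -0.62 on the log2 scale (adjusted p = 0.00137), and the estrogen difference was positive without and negative with CoCl2. The interactions of VEGFA (-1.12), ADM (-0.89), NDRG1 (-0.67), KDM3A (-0.44) and BNIP3 (-0.42) were negative as well, and so was that of KDM6A (-0.66, adjusted p = 0.000212). LDHA (0.40) and APEX1 (0.40, adjusted p = 0.0271) had positive interactions by the same edgeR test.

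The EGLN3 share of the 3 hydroxylase genes' counts differed in opposite directions between groups with and without estrogen, depending on CoCl2, with no overlap of the groups. It was lower by 0.58 percentage points in estrogen than in control samples (difference -0.58) and higher by 1.43 percentage points in CoCl2+estrogen than in CoCl2 samples. The difference between these 2 changes was not tested. EGLN1, whose counts make up most of the denominator, had a higher CPM in estrogen than in control samples. Its CPM was lower in CoCl2+estrogen than in CoCl2 samples. EGLN2, also in the denominator, had a higher CPM with estrogen in both comparisons. The part of EGLN1 and of EGLN2 in the share was not tested separately.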

How the results depend on the processing

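The counts of called genes among the 10, HIF3A included where it was tested, kept within 1.5 times of the main ones under every alternative. They were 2 for CoCl2 and for CoCl2 on top of estrogen (1.44% and 17% of all genes) and 1 for the interaction (5.8%). They were 6 or 7 for estrogen, 6 to 8 for both agents and 6 or 7 for estrogen on top of CoCl2. The main counts of these 3 comparisons were 7, 8 and 7, and 6, 7 and 6 without HIF3A. Of all genes, 68.9%, 65.4% and 60.9% were called there. HIF3A passed the filter only through the samples with estrogen, so its calls do not count as support. Of 380 alternative values of the 27 called changes, 361 kept direction and call and 19 lost the call, all of them for ARNT2 and VHL. The 27 include the calls of HIF3A in the 3 comparisons of an estrogen group with control or CoCl2, which likewise do not count as support. With filterByExpr HIF3A was not tested in these 3 comparisons, so that the counts of called genes were lower by 1 there and HIF3A has no call under that filter. ARNT2 in CoCl2+estrogen against control lost it with DESeq2 (0.65) and library totals alone (0.53), with adjusted p from 0.0121 to 0.0906 over the alternatives, and against CoCl2 with DESeq2 (0.74; 0.00624 to 0.0889). VHL in CoCl2+estrogen against control lost it with upper-quartile scaling (0.17), library totals alone (0.095) and the replicate block (0.19; 0.00093 to 0.3). The replicate letters were taken as names. A link between samples of the same letter was looked at only through correlations and the replicate block, with no test of the link itself. Deviations of same-letter samples from their group means had correlations of 0.32, 0.35 and -0.086 (A, B and C) between control and CoCl2. Between estrogen and CoCl2+estrogen they were -0.10, 0.48 and 0.28. The block changed no other call among the 10 genes. In these 2 comparisons it raised all calls, from 229 to 327 under CoCl2 and from 2706 to 3791 with CoCl2 on top of estrogen. All calls under CoCl2 were also 136 to 249 when 1 library was left out, 345 with DESeq2 and 359 with all 12 libraries in one fit, and with CoCl2 on top of estrogen 1671 to 2493 when 1 library was left out. Library totals alone shifted the median of all genes by -0.13 under estrogen and -0.10 under both agents.

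Signs turned only for uncalled differences near 0, and the cause was not tested. Library totals alone gave -0.019 for HIF1A, -0.0066 for EPAS1 and -0.026 for ARNT under CoCl2, -0.11 for HIF1AN under estrogen, -0.044 for HIF1AN with estrogen on top of CoCl2, -0.0043 for HIF1AN with CoCl2 on top of estrogen and 0.034 for the VHL interaction. Upper-quartile scaling gave -0.051 and -0.019 for HIF1AN under estrogen without and with CoCl2, and 0.0064 for EPAS1 with CoCl2 on top of estrogen. Under both agents, DESeq2, median-ratio scaling, filterByExpr and the 12-library fit gave 0.0061, 0.0061, 0.0086 and 0.014 for ARNT and 0.0039, 0.0038, 0.0062 and 0.012 for HIF1AN. For HIF1AN with CoCl2 on top of estrogen these settings gave -0.0025, -0.0025, -0.0084 and -0.0049, and no filter gave -0.0011. For its interaction, DESeq2, median-ratio scaling, filterByExpr and no filter gave -0.012, -0.011, -0.013 and -0.012. The log2 ratio in place of the EGLN3 share gave -0.046 for estrogen (exact permutation p = 0.795).

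Leaving out 1 library turned these ranges across 0. Under CoCl2 they were -0.044 to 0.14 for ARNT, -0.23 to 0.029 for ARNT2, -0.11 to 0.057 for EGLN2, -0.0010 to 0.10 for EPAS1, -0.021 to 0.13 for HIF1A and -0.042 to 0.022 for HIF1AN. Under estrogen they were -0.18 to 0.12 for EGLN3 and -0.0068 to 0.026 for HIF1AN, and under both agents -0.026 to 0.023 for ARNT. With estrogen on top of CoCl2 they were -0.13 to 0.032 for ARNT and -0.034 to 0.042 for HIF1AN, and with CoCl2 on top of estrogen -0.086 to 0.0071 for HIF1A, -0.014 to 0.014 for HIF1AN and -0.21 to 0.45 for HIF3A. The interactions ranged from -0.13 to 0.0054 for EPAS1, -0.040 to 0.046 for HIF1AN and -0.11 to 0.054 for VHL, and the CoCl2 effect on the EPAS1 share from -0.34 to 1.18 percentage points. The counts of HIF3A, at most 16 per sample, limit what can be said of it.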
